A study of Mus musculus with 6 samples.

Results

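The interferon regulatory factor (IRF) genes were followed in leukaemia initiating cells (LICs), the cells of a leukaemia that can start the disease anew, from adult and from neonatal mouse leukaemia. The members were taken by gene symbol: Irf1, Irf2, Irf3, Irf4, Irf5, Irf7, Irf8 and Irf9, 8 of the 23337 genes in the count table. The rule used symbols only, but the family was chosen with earlier results of these data known. RNA was polyA-selected and sequenced from sorted LICs in 6 libraries, 3 of the adult group (replicates 1, 2 and 4) and 3 of the neonatal group (replicates 4, 7 and 8). Where 3 values of a group follow each other below, they stand in that order of replicates. The source material of every library is given as haematopoietic stem and progenitor cells. The strain, the driver of the leukaemia, the sorting gate, the sex and the age in days are not given in the sources used here. Nothing says that the replicates are separate animals either, and each p-value covers no more than library-to-library spread, which may be technical.

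IRF proteins share an N-terminal DNA-binding domain with conserved tryptophans that reads GAAA repeats, the core of the interferon-stimulated response element (ISRE). Irf3 and Irf7 switch on the type I interferon genes after microbial nucleic acid is sensed, Irf9 carries the interferon signal to its target genes as part of a DNA-binding complex, and Irf1 and Irf2 act on the same sites as activator and antagonist. Irf5 drives inflammatory cytokine genes downstream of Toll-like receptors. Irf8 and Irf4 bind DNA weakly alone and work with partners such as PU.1, and in blood formation Irf8 directs progenitors towards monocytes and dendritic cells and away from neutrophils.

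The 5 libraries other than neonatal replicate 4 held 60113466 to 66132051 counts, and neonatal replicate 4 held 3932833, so that the others were 16.2 times as deep on average. Levels are given as CPM, the count of a gene relative to the size of its library after TMM scaling, which evens out differences in RNA make-up between libraries. A gene with no read could still have stood at up to 0.0425 to 0.0503 CPM in the deep libraries and 0.897 CPM in neonatal replicate 4 (3 counts, which covers counting error only). Xist was at 0.610 to 0.919 CPM in adult and 51.7 to 186 CPM in neonatal libraries, and the Y-linked gene Ddx3y at 98.8 to 154 CPM in adult and 0 to 0.0148 CPM in neonatal libraries, and sex and age cannot be told apart here. All 8 IRF genes are autosomal. As a check of the labelled cell type, 6 stem and progenitor markers summed to 9563 to 19542 CPM in adult and 3350 to 10474 CPM in neonatal libraries. The granule genes Elane and Mpo of myeloid progenitors made up most of it in the adult libraries. The other 4 had negative log2 fold changes, Cd34 at 8.16 to 105 CPM in adult and 396 to 662 CPM in neonatal libraries, Flt3 at 4.58 to 19.4 CPM in adult and 256 to 1231 CPM in neonatal libraries, Kit at 50.1 to 85.8 CPM in adult and 23.6 to 264 CPM in neonatal libraries, and Gata2 at 1.013 to 16.5 CPM in adult and 12.0 to 484 CPM in neonatal libraries. None of the 6 was called by edgeR with 6 libraries, and without neonatal replicate 4 Flt3 and Kit were lower and Elane higher in adult LICs. Of the B cell markers Pax5 and Ms4a1 had no count, but Cd79b was at 28.3 to 68.5 CPM in adult and 70.7 to 146 CPM in neonatal libraries and made up most of a list sum of 28.5 to 69.4 CPM in adult and 72.0 to 147 CPM in neonatal libraries. Of the T and NK cell markers Cd3e, Cd4 and Ncr1 had no count, but Nkg7 was at 44.3 to 112 CPM in adult and 35.9 to 269.9 CPM in neonatal libraries and made up most of a list sum of 45.96 to 113 CPM in adult and 37.1 to 272 CPM in neonatal libraries. These genes were picked from their lists after their values were seen. Because these are bulk libraries, fewer cells of a type and less RNA per cell cannot be told apart either.

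Adult LICs held less Irf8 RNA than neonatal LICs in every library, and Irf8 was the most abundant family member per length in each neonatal library. Irf1, Irf2, Irf5 and Irf7 were also lower in all 3 adult libraries than in neonatal replicates 7 and 8, but not than in the shallow neonatal replicate 4. Of the 13856 genes tested without neonatal replicate 4, 25.0% were lower in that way and 25.6% had the reverse pattern. For Irf7 the margin was 1.04 times. Irf3 and Irf9 had much the same range in both groups, and Irf4 was nearly silent. The filter on low counts passed 7 of the 8 members, all but Irf4. None of the 7 passed edgeR's quasi-likelihood test at an adjusted p of 0.05 over all genes, where 0.0527% of 13272 genes passed (0.0377% higher and 0.0151% lower in adult LICs). At an unadjusted p under 0.05 there was 1 member of 7, Irf8, where 11.9% of all genes were. DESeq2, edgeR's likelihood ratio test and limma voom with library quality weights each called 1 member, Irf8, on the same 6 libraries. Over all genes with an adjusted p they called 5.75%, 4.46% and 7.96%. Limma voom without weights called no member and 0.0527% of all genes. With neonatal replicate 4 left out, edgeR again called 0 of 7, against 5.98% of 13856 genes, and 4 of 7 had an unadjusted p under 0.05, against 29.5% of all genes. Limma voom then called 1 member, Irf8, and 6.70% of all genes. DESeq2 called 4, Irf1, Irf2, Irf5 and Irf8, and 23.8% of all genes.

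**Figure D1:**
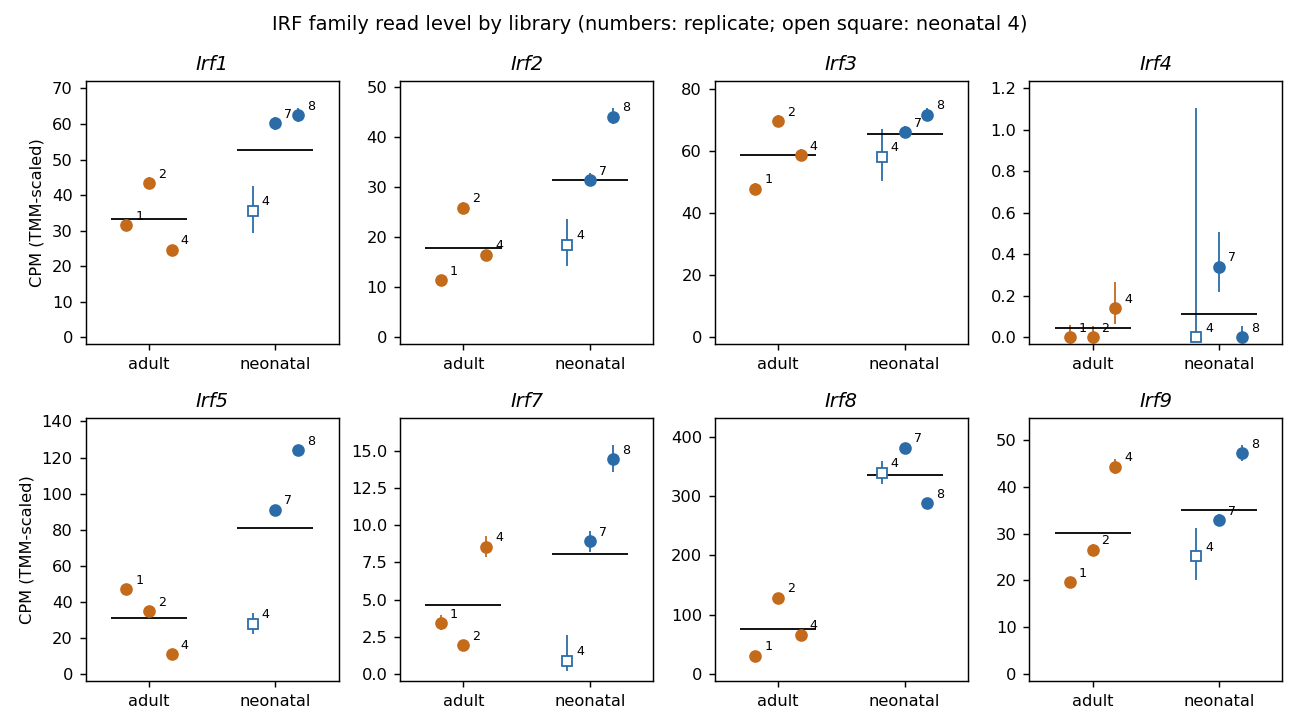
CPM of each IRF gene (vertical axis, linear, a scale per gene) in the 3 adult libraries (orange, left) and the 3 neonatal libraries (blue, right). Points are libraries with their replicate number and a 95% Poisson counting interval, the open square is neonatal replicate 4, and black bars are group means. For Irf8 the adult libraries reach 129 CPM and the lowest neonatal library stands at 288 CPM, whereas for Irf1, Irf2 and Irf5 the open square lies among the adult libraries.

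Irf8 (chromosome 8, 120736376 to 120756692, mm10, plus strand, 9 exons in the annotation of the file) was the member with the widest gap between the groups. It stood at 31.2, 129 and 66.6 CPM in the adult libraries, against 339, 381 and 288 CPM in the neonatal ones. All 3 adult libraries lay below all 3 neonatal libraries, and the lowest neonatal value was 2.24 times the highest adult value. Such a pattern, without overlap and with adult lower, was seen in 7.67% of the 13272 genes tested, and the reverse pattern in 12.0%. The log2 fold change, adult minus neonatal, was -2.15 ± 0.51 (approximate SE, n = 3 each, edgeR adjusted p = 0.165), and Irf8 ranked at place 254 of all genes by p. The adult libraries differed 4.12-fold among themselves and the neonatal libraries 1.32-fold. Neonatal replicate 4 had 1134 Irf8 reads, which gives a counting interval of 319.5 to 359 CPM. Leaving that library out gave -2.16 ± 0.54 (approximate SE, edgeR adjusted p = 0.0658).

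The bases before the RefSeq start site of Irf8 are shown because Irf8 and Irf1 are both known to be induced by interferon gamma, whose gamma-activated site (GAS) has the letters TTCNNNGAA. Windows are 250 bases, 5′ to 3′ on the gene's strand, from RefSeq on GRCm38.p6, whose chromosome coordinates are those of mm10. Capitals mark matches on either strand to GAS, to the ISRE, searched as a pair of GAAA blocks with any 2 bases between them, to the ETS-IRF composite, searched as GGAA and GAAA with any 2 bases between them, or to TATAAA. The Irf8 window is chr8:120736108-120736357 (plus strand).
Irf8: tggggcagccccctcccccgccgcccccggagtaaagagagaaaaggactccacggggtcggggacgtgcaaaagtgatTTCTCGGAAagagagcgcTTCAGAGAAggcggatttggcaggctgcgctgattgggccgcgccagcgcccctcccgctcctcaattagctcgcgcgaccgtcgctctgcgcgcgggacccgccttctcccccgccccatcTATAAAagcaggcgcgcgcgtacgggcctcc
It held 2 GAS matches, TTCTCGGAA at -171 to -163 and TTCAGAGAA at -153 to -145 from the start site, and a TATAAA at -31 to -26. GAS letters occur in 7.02%, ISRE letters in 2.98%, the composite in 2.30% and TATAAA in 12.4% of the 32851 promoter windows of the same length. A RefSeq window at a second, downstream Irf8 start had none of these motifs. Matches describe the letters only, and binding was not measured in these cells.

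Markers of the cells in which Irf8 is highest in normal blood formation were read beside it. Of 6 conventional dendritic cell markers the summed level was 8.85 to 25.0 CPM in adult and 258 to 1233 CPM in neonatal libraries. Flt3, which early progenitors also express, held 4.58 to 19.4 CPM of that in adult and 256 to 1231 CPM in neonatal libraries. The 5 markers other than Flt3 summed to 3.33 to 5.69 CPM in adult and 1.49 to 5.24 CPM in neonatal libraries, with Clec9a at most 0.313 CPM in adult and 0.0142 CPM in neonatal libraries. Of 6 plasmacytoid dendritic cell markers the sum was 47.7 to 97.6 CPM in adult and 148 to 559 CPM in neonatal libraries, carried by Tcf4 and Bst2. The remaining 4 summed to 0.109 to 0.432 CPM in adult and 0.283 to 0.897 CPM in neonatal libraries. In neonatal replicate 4 Ly6d was at 0.897 CPM, the 3-count limit of that library. Siglech, the defining marker, was at 0.0468 to 0.0893 CPM in adult and 0 to 0.0296 CPM in neonatal libraries, near or below the 3-count limits. Monocyte markers overlapped, with sums over 6 genes of 1865 to 3773 CPM in adult and 1493 to 5158 CPM in neonatal libraries. Of 6 neutrophil markers 5 were in the table and tested. Each of the 5 stood higher in every adult library than in every neonatal library, a pattern seen in 12.0% of the 13272 genes tested. With 6 libraries edgeR called 0 of the 5, where 0.0377% of all genes were called higher in adult LICs. Without neonatal replicate 4 it called 1, S100a8, where 2.25% of 13856 genes were called higher. The 5 markers summed to 1726 to 14277 CPM in adult and 3.60 to 91.8 CPM in neonatal libraries. Of the 6 stem and progenitor markers, Cd34 and Flt3, like Irf8, stood lower in every adult library than in every neonatal library, as did 7.67% of all genes tested. Elane stood higher in every adult library, and Kit, Gata2 and Mpo overlapped between the groups. The part of these cells in the Irf8 difference was not tested.

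Genes known to act with or under Irf8 did not shift together. Of 14 listed monocyte and dendritic genes linked to Irf8, 12 were tested, 6 had a negative log2 fold change, and none passed with 6 libraries or without neonatal replicate 4. Ly86, which encodes MD-1, a partner of an innate immune receptor, had the smallest p of the list. It was at 22.5, 120.3 and 27.9 CPM in the adult libraries, against 646, 234 and 179.6 CPM in the neonatal ones (log2 fold change -2.63 ± 0.79, approximate SE, edgeR adjusted p = 0.239; -1.87 without neonatal replicate 4 and -3.81 without adult replicate 2). Its groups did not overlap, as for Irf8. Klf4, a monocyte factor that Irf8 switches on, was low throughout, at 0.249 to 2.82 CPM in adult and 0.156 to 0.563 CPM in neonatal libraries. PU.1, the partner of Irf8 and Irf4, is listed under its older symbol Sfpi1. It was at 449, 408 and 334 CPM in the adult libraries, against 270.2, 457 and 675 CPM in the neonatal ones. The groups overlapped (log2 fold change -0.24, edgeR adjusted p = 0.871, and 0.13 without neonatal replicate 8). Without neonatal replicate 4 every adult library lay below both neonatal ones (log2 fold change -0.52, edgeR adjusted p = 0.193). So it was for 25.0% of the 13856 genes tested in that fit.

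By Pearson correlation of log2 CPM over the 6 libraries, the genes most like Irf8 among 8148 genes with a mean of at least 10 CPM were Mboat1 (r = 0.990), Rasa4 (0.987) and Tsen34 (0.983). Mboat1 was at 12.0, 20.8 and 18.3 CPM in the adult libraries, against 37.1, 37.4 and 30.7 CPM in the neonatal ones. Picked from 8148 genes over 6 libraries that include the group difference, such values only describe the order of the libraries.

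Irf4 (chromosome 13, 30749258 to 30766927), the close relative of Irf8 that is needed for plasma cells and late B cells, was almost unread. It had 0, 0 and 9 counts in adult replicates 1, 2 and 4, and 0, 24 and 0 counts in neonatal replicates 4, 7 and 8, 33 in all against 62227 for Irf8. It therefore could not be tested. A count of 0 in neonatal replicate 4 allows up to 0.897 CPM, and the reads found correspond to 0.140 CPM in adult replicate 4 and 0.340 CPM in neonatal replicate 7. Of 6 genes linked to Irf4, 5 were tested and none was called in either fit. Myc, which Irf4 activates in plasma cell tumours and which many other factors control, had the smallest p, at 66.9, 264 and 195 CPM in the adult libraries, against 303, 488 and 381 CPM in the neonatal ones (log2 fold change -1.15, edgeR adjusted p = 0.424).

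Irf1 and Irf2, the activator and its antagonist at shared sites, had overlapping proportions in the groups, and both stood higher in 2 of the 3 neonatal libraries than in any adult library. Irf1 (chromosome 11, 53770014 to 53778374, plus strand) was at 31.5, 43.4 and 24.7 CPM in the adult libraries, against 35.6, 60.2 and 62.4 CPM in the neonatal ones. Neonatal replicates 7 and 8 lay above every adult library and neonatal replicate 4 lay among them. The log2 fold change was -0.67 ± 0.36 (approximate SE, n = 3 each, edgeR adjusted p = 0.532) and -0.90 ± 0.27 without neonatal replicate 4 (edgeR adjusted p = 0.0916). The 119 Irf1 reads of neonatal replicate 4 give a counting interval of 29.5 to 42.6 CPM, which stays below the values of the other neonatal libraries.

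Irf2 (chromosome 8, 46739745 to 46847458, plus strand) was at 11.4, 25.9 and 16.5 CPM in the adult libraries, against 18.5, 31.5 and 44.2 CPM in the neonatal ones. Here too neonatal replicate 4 lay inside the adult range. The log2 fold change was -0.82 ± 0.46 (approximate SE, n = 3 each, edgeR adjusted p = 0.546) and -1.09 ± 0.38 without neonatal replicate 4 (edgeR adjusted p = 0.119). It was -0.49 without neonatal replicate 8. Per kilobase of exon, Irf1 held 2.05, 1.24 and 1.10 times the level of Irf2 in adult replicates 1, 2 and 4, and 1.42, 1.41 and 1.04 times in neonatal replicates 4, 7 and 8. These ratios, which do not depend on library scaling, overlapped between the groups.

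The promoter windows of Irf1 (chr11:53769764-53770013) and Irf2 (chr8:46739495-46739744) are set beside each other because the pair acts on shared sites. Both windows hold GAS letters, and only that of Irf2 also holds ISRE and composite letters.
Irf1: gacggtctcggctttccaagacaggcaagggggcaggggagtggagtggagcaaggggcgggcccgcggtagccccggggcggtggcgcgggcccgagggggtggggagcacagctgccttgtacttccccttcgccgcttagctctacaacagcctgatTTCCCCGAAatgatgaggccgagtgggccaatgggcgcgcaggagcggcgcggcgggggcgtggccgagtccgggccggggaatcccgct
Irf2: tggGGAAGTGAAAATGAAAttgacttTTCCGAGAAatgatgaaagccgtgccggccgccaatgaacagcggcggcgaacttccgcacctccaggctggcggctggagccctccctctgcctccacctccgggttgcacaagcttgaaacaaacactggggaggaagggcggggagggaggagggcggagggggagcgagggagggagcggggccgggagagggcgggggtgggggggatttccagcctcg
Irf1 held 1 GAS match, TTCCCCGAA at -90 to -82, and a RefSeq window at a second, downstream Irf1 start had none of these motifs. Irf2 held an ISRE match, GAAAATGAAA at -241 to -232, which overlaps a composite match, GGAAGTGAAA at -247 to -238, and a GAS match, TTCCGAGAA at -224 to -216. With Irf8 these were the only members with a GAS or ISRE match, 3 of the 8 members, all of which had a RefSeq window. No match in a window says only that these letters are absent from those 250 bases.

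Irf5, a driver of inflammatory cytokine genes in myeloid cells, had the log2 fold change furthest from 0 after that of Irf8. Irf5 (chromosome 6, 29526625 to 29537320, plus strand) was at 46.9, 34.8 and 11.0 CPM in the adult libraries, against 27.8, 91.2 and 124 CPM in the neonatal ones. Neonatal replicates 7 and 8 were at least 1.94 times the highest adult library, and neonatal replicate 4 again fell inside the adult range, with 93 reads and a counting interval of 22.4 to 34.1 CPM. The log2 fold change was -1.40 ± 0.66 (approximate SE, n = 3 each, edgeR adjusted p = 0.471) and -1.81 ± 0.55 without neonatal replicate 4 (edgeR adjusted p = 0.0947). Both groups were wide, 4.24-fold among adult and 4.47-fold among neonatal libraries. Its window (chr6:29526375-29526624, plus strand) has none of the searched letters and is shown because Irf5 is high with Irf1 in neonatal replicates 7 and 8. The window is rich in G and C (72.0%, against a median of 52.4% over all windows). So are the windows shown for Irf1 (71.2%), Irf8 (67.2%) and Irf2 (65.2%), which hold matches.
Irf5: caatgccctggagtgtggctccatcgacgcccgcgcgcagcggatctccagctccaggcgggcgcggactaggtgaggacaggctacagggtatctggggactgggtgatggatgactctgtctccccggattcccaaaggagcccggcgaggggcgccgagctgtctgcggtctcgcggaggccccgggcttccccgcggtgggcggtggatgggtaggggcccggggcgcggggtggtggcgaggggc
The genes most like Irf5 over the 6 libraries were Pxmp4 (Pearson r = 0.998), Pink1 (0.991) and Rab37 (0.985), and those most like Irf1 were Kif17, Derl1 and Padi2 (0.991, 0.991 and 0.989).

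Irf3, the factor held ready in most cells to start interferon production, was the steadiest member. Irf3 (chromosome 7, 44997648 to 45002848, plus strand) was at 47.9, 69.7 and 58.8 CPM in the adult libraries, against 58.3, 66.3 and 71.8 CPM in the neonatal ones. The groups overlapped and their means of 58.8 ± 10.9 CPM (adult, SD, n = 3) and 65.4 ± 6.78 CPM (neonatal, SD, n = 3) differed by less than the adult SD (log2 fold change -0.16 ± 0.29, approximate SE, edgeR adjusted p = 0.890). Leaving out 1 library at a time gave -0.30 (without adult replicate 2) to -0.057 (without adult replicate 1).

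Irf7, which interferon itself induces and which amplifies the response, was the lowest of the members tested and the most scattered. Irf7 (chromosome 7, 141263183 to 141266424, minus strand) was at 3.44, 1.92 and 8.56 CPM in the adult libraries, against 0.897, 8.91 and 14.4 CPM in the neonatal ones. Neonatal replicate 4 had 3 reads, with a counting interval of 0.185 to 2.62 CPM, below the other neonatal libraries. The log2 fold change was -0.84 ± 0.91 (approximate SE, n = 3 each, edgeR adjusted p = 0.796) and -1.34 ± 0.67 without neonatal replicate 4 (edgeR adjusted p = 0.229). It was -1.64 without adult replicate 4, -0.47 without adult replicate 2 and -0.15 without neonatal replicate 8. Per kilobase, Irf3 exceeded Irf7 in each library, 11.8, 30.8 and 5.83 times in adult replicates 1, 2 and 4, and 55.2, 6.31 and 4.22 times in neonatal replicates 4, 7 and 8.

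Irf9, the DNA-binding subunit of the complex that carries the type I interferon signal, overlapped between the groups. Irf9 (chromosome 14, 55603985 to 55610030, plus strand) was at 19.6, 26.6 and 44.3 CPM in the adult libraries, against 25.1, 32.8 and 47.2 CPM in the neonatal ones. Adult replicate 4 and neonatal replicate 8 were the high libraries, and the same 2 were highest in their groups for Irf7. The log2 fold change was -0.22 ± 0.42 (approximate SE, n = 3 each, edgeR adjusted p = 0.892), and it ran from -0.61 without adult replicate 4 to 0.053 without neonatal replicate 8.

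**Figure D2:**
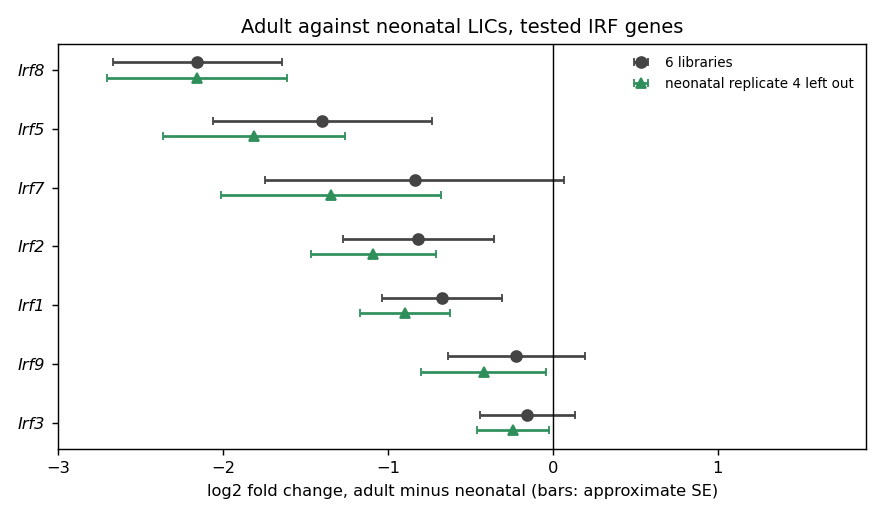
Log2 fold change, adult minus neonatal, of the 7 IRF genes tested, from edgeR on 6 libraries (black circles) and with neonatal replicate 4 left out (green triangles); bars are approximate SE. All 14 estimates lie below 0, and they run from -2.15 for Irf8 to -0.16 for Irf3 with 6 libraries.

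Each of the 7 members that could be tested was lower in adult LICs by fold change, though none passed the test, with a median log2 fold change of -0.82, where 53.5% of all genes were negative and their median was -0.05. Without neonatal replicate 4 the same 7 were negative, with a median of -1.09 against 0.05 over all genes. Neonatal replicates 7 and 8 both lay above every adult library for 5 of the 7, Irf1, Irf2, Irf5, Irf7 and Irf8, which is 71.4%, while 25.0% of the 13856 genes tested without neonatal replicate 4 had that pattern and 25.6% had the reverse. For Irf7 the margin was 1.04 times. Neonatal replicate 4 lay inside the adult range for 5 of the 7, Irf1, Irf2, Irf3, Irf5 and Irf9, above it for Irf8 and below it for Irf7. For all 5 of these genes except Irf3 its value was the lowest of the neonatal group by more than the counting interval of neonatal replicate 4 reached; for Irf3 the interval, 50.4 to 67.1 CPM, included neonatal replicate 7. In the annotation of the file no member shared exon bases with another gene, so reads of antisense partners on the same bases, which the unstranded kit could not tell apart, cannot come from genes listed there.

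Per kilobase of exon, the only scale on which members can be set against each other, the order in adult LICs was Irf3 (26.9 ± 4.97), Irf8 (26.7 ± 17.4), Irf5 (12.9 ± 7.63), Irf9 (11.2 ± 4.73), Irf1 (9.88 ± 2.82), Irf2 (7.22 ± 2.97), Irf7 (2.49 ± 1.87) and Irf4 (0.00998 ± 0.0173), as means of CPM per kilobase with SD over 3 libraries. Every neighbouring pair in that order overlapped except Irf7 and Irf4. In neonatal LICs the order was Irf8 (119 ± 16.5), Irf5 (33.9 ± 20.5), Irf3 (29.9 ± 3.10), Irf1 (15.7 ± 4.44), Irf9 (13.04 ± 4.17), Irf2 (12.6 ± 5.16), Irf7 (4.35 ± 3.66) and Irf4 (0.0242 ± 0.0419). There Irf8 and Irf5, Irf3 and Irf1, and Irf7 and Irf4 did not overlap, and the other neighbours did.

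The make-up of the family differed accordingly. Irf8 held 14.6%, 36.1% and 26.1% of the summed per-kilobase level in adult replicates 1, 2 and 4, and 64.5%, 53.7% and 41.0% in neonatal replicates 4, 7 and 8. The shares of Irf3, Irf1 and Irf9 ran the other way. Irf3 held 28.9%, 25.2% and 29.8% in adult and 14.3%, 12.1% and 13.2% in neonatal libraries. Irf1 held 12.4%, 10.2% and 8.14% in adult and 5.69%, 7.15% and 7.49% in neonatal libraries. Irf9 held 9.65%, 7.84% and 18.3% in adult and 5.02%, 4.87% and 7.07% in neonatal libraries. The shares of Irf8, Irf3, Irf1 and Irf9 did not overlap between the groups, and those of the other members did. Shares of one family must trade off against each other. The level of Irf8 relative to Irf3 was 0.504, 1.43 and 0.877 in adult replicates 1, 2 and 4, and 4.50, 4.45 and 3.11 in neonatal replicates 4, 7 and 8. The family as a whole summed to 75.6, 126 and 90.1 CPM per kilobase in adult and 186, 251 and 248 in neonatal libraries. Without Irf8 the sums were 64.6, 80.7 and 66.6 in adult replicates 1, 2 and 4, and 66.1, 116 and 146 in neonatal replicates 4, 7 and 8, so that neonatal replicate 4 then stood inside the adult range.

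**Figure D3:**
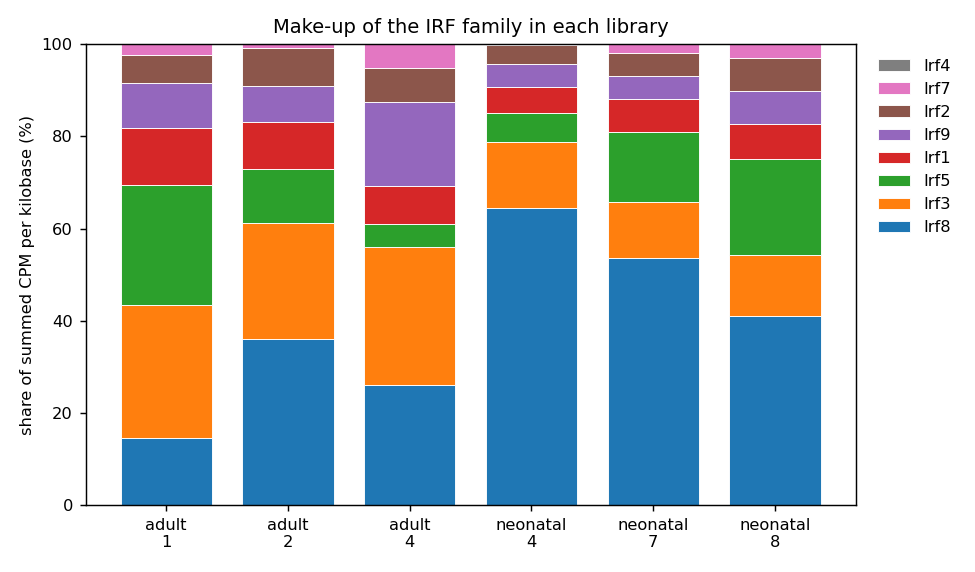
Share of the summed CPM per kilobase held by each IRF gene (stacked, percent, vertical axis) in the 3 adult libraries (left) and the 3 neonatal libraries (right). Irf8, at the base, fills 14.6% to 36.1% of the adult bars and 41.0% to 64.5% of the neonatal bars; Irf4 is too small to be seen.

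The ligands that act upstream and downstream of the family were unread in these cells. All 11 listed interferon genes, Ifnb1, Ifng and the type I and type III genes among them, had 0 counts in every library, which polyA-selected reads at this depth bound only as far as the 3-count limits above. Over all pathway lists, 112 of 113 genes were in the table and 89 were tested. With 6 libraries edgeR called 0 of these, and 17 had an unadjusted p under 0.05, beside 11.9% of all genes. Limma voom called 0, DESeq2 called 12, and the likelihood ratio test and limma voom with quality weights called 11 each, beside the shares of 5.75%, 4.46% and 7.96% that DESeq2, the likelihood ratio test and the weighted fit called over all genes. Without neonatal replicate 4 edgeR called 8 of 92, 6 lower and 2 higher in adult LICs, which is 8.70% beside 5.98% of all genes (3.72% lower and 2.25% higher). The results in the next paragraphs therefore rest on 2 neonatal libraries wherever a call is stated.

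Among receptors and signal carriers, 13 of 14 were tested and edgeR without neonatal replicate 4 called 1 lower and 1 higher in adult LICs. Ifnar1, a chain of the type I interferon receptor, was at 43.4, 57.6 and 60.6 CPM in the adult libraries, against 39.8, 124 and 119 CPM in the neonatal ones (log2 fold change -1.18 ± 0.20, approximate SE, edgeR adjusted p = 0.0400 without neonatal replicate 4; -0.81, adjusted p = 0.540 with it). Il28ra, the older symbol of the type III interferon receptor gene, was low in adult LICs, at 0.982 to 2.81 CPM, and at most 0.299 CPM in neonatal LICs (edgeR adjusted p = 0.0407 without neonatal replicate 4).

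Of 18 sensors and activators of Irf3, Irf5 and Irf7, 15 were tested, with 1 call in each direction. Mavs, the mitochondrial adaptor through which RNA sensors reach Irf3 and Irf7, was at 5.03, 14.6 and 12.8 CPM in the adult libraries, against 22.7, 71.1 and 93.0 CPM in the neonatal ones. Its groups did not overlap (log2 fold change -2.93 ± 0.45, approximate SE, edgeR adjusted p = 0.0360 without neonatal replicate 4; -2.53, adjusted p = 0.169 with it). Tlr4, the endotoxin receptor, was higher in adult LICs, with 38.1, 31.8 and 19.1 CPM in the adult libraries, against 7.17, 4.59 and 1.26 CPM in the neonatal ones (log2 fold change 3.33 ± 0.65, approximate SE, edgeR adjusted p = 0.0449 without neonatal replicate 4). Of 8 DNA-binding partners, Tcf3 alone was called, lower in adult LICs (log2 fold change -1.21, edgeR adjusted p = 0.0414 without neonatal replicate 4; -0.80, adjusted p = 0.598 with it). Neonatal replicate 4 stood at 62.5 CPM of Tcf3, below the adult libraries at 90.02 to 121 CPM. Ets1, the founding ETS factor, had the smallest p of the partners and was at 13.3 to 50.2 CPM in adult and 2.09 to 7.05 CPM in neonatal libraries, without overlap (log2 fold change 2.78, edgeR adjusted p = 0.155). Of 7 cofactors and inhibitors none was called.

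The genes that IRF proteins act on did not move as lists. Of 18 type I interferon targets 17 were tested, none was called in either fit, and 9 had a negative log2 fold change (median -0.20; 0.54 without neonatal replicate 4, where 6 were negative). Several classical members were barely read. Isg15, a ubiquitin-like antiviral protein gene, was at 1.61 to 1.98 CPM in adult and 0 to 1.82 CPM in neonatal LICs, and Mx1, an antiviral GTPase gene, at 0.452 to 1.56 CPM in adult and 0.241 to 1.33 CPM in neonatal LICs. Oas2, a sensor of double-stranded RNA, and Ifit2, which binds foreign RNA, had the smallest p-values of the list and were higher in all 3 adult libraries, Oas2 at 4.90 to 6.53 CPM in adult and 0 to 1.10 CPM in neonatal LICs, Ifit2 at 15.3 to 41.5 CPM in adult and 6.87 to 13.05 CPM in neonatal LICs (edgeR adjusted p = 0.233 and 0.283).

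Of 17 interferon gamma and Irf1 targets 15 were tested with 6 libraries (10 negative, median -0.16) and none was called. Without neonatal replicate 4, edgeR called 3 of 16 lower in adult LICs, where it called 3.72% of all genes lower. They were the peptide transporter genes Tap1 and Tap2 and the immunoproteasome gene Psmb8, with log2 fold changes of -1.76, -2.15 and -1.12 (edgeR adjusted p = 0.0360, 0.0273 and 0.0390). All 3 lie between positions 34187556 and 34216321 of chromosome 17, so they are not 3 separate loci. The median over the list was 0.14. Psmb8 was lower in every adult library than in every neonatal one, and for Tap1 and Tap2 neonatal replicate 4 lay below the adult range. In the same list Gbp5 and Gbp6, guanylate-binding protein genes induced by interferon gamma, were read almost only in adult LICs. Gbp5 was at 0.447 to 0.503 CPM in adult and 0 to 0.0148 CPM in neonatal libraries, and Gbp6 at 0.283 to 1.31 CPM in adult and 0 CPM in neonatal libraries (edgeR adjusted p = 0.140 and 0.162). The 3-count limit of neonatal replicate 4, 0.897 CPM, lies above every adult Gbp5 value and inside the adult Gbp6 range. Its counts of 0 therefore cannot show that these genes were lower there.

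**Figure D4:**
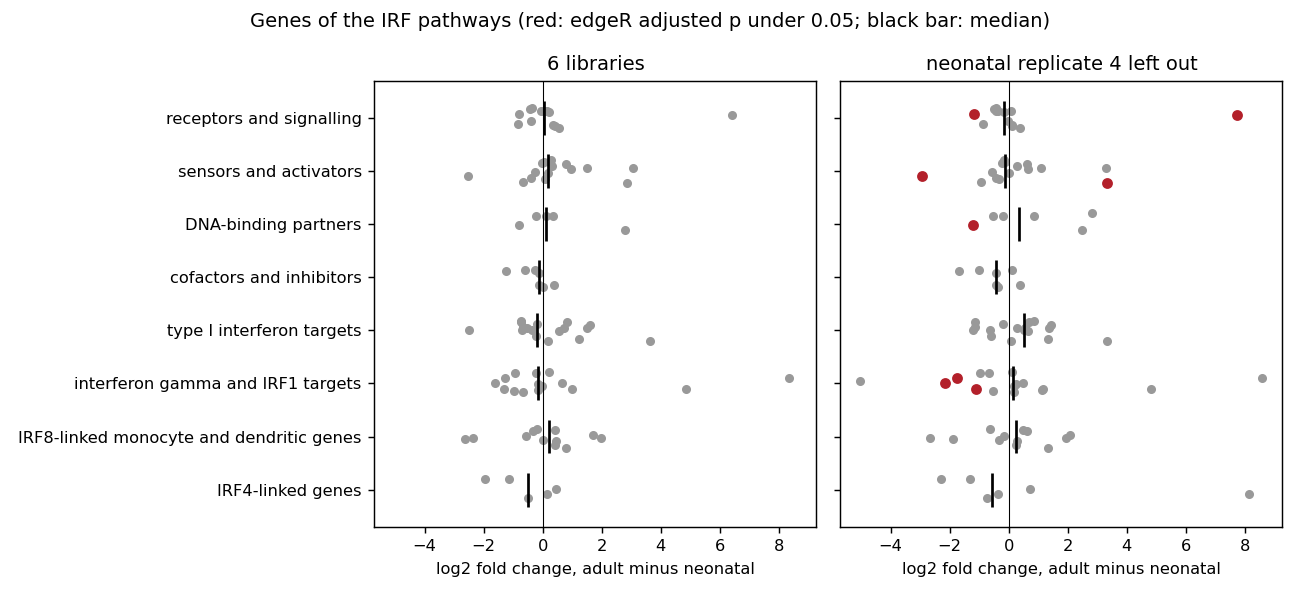
Log2 fold change, adult minus neonatal, of the tested genes in 8 lists around the IRF family, on 6 libraries (left) and with neonatal replicate 4 left out (right). Each point is a gene, red points passed edgeR at an adjusted p under 0.05, and black bars are list medians; no point is red on the left and 8 are on the right, 6 of them below 0.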

How the data were processed

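RNA from sorted LICs was polyA-selected and sequenced single-end from a kit that keeps no strand, per the labels' protocols. The deposited table holds unnormalized counts of reads, made by the authors with featureCounts 1.5.1 on primary alignments and a UCSC annotation of mm10, per the file headers. Trimmomatic, Bowtie, TopHat and DESeq2 are listed with no version, per the submitters' processing notes. Adult minus neonatal was fitted over all genes with edgeR 4.0.16 in R 4.3.3 (filterByExpr with a minimum count of 10, TMM, robust quasi-likelihood F test, Benjamini-Hochberg adjustment, threshold 0.05). The SE is the absolute log2 fold change over the square root of F. Alternatives used DESeq2 1.42.0 and limma 3.58.1. Only the edgeR quasi-likelihood fit was tried on simulated data, and the alternatives were not. CPM intervals are exact Poisson at 95%, and log2 CPM for correlations used a prior count of 2. Named genes were all members, the 3 most similar genes of a member, and up to 4 genes per pathway list with the smallest p, or called without neonatal replicate 4. Gene lists (9 pathway and 9 marker lists, 7 older symbols matched through RefSeq) came from general knowledge. Members and lists were chosen with earlier results of these data known. Isg15, Mx1, the markers named singly, Xist and Ddx3y fall outside that rule, as does the search for TATAAA, and were chosen after their values were seen. Summed CPM of the remaining marker lists was 319 to 454 (plasma cell) and 132 to 655 (macrophage) in adult libraries, and 197 to 405 (plasma cell) and 64.3 to 202 (macrophage) in neonatal libraries. A planned comparison of protein sequences was not made. A further gene of the numbered family is not reported here.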

Additional observations from a re-analysis of the deposited data

How the results depend on the processing

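The count of genes called by edgeR was 7 on 6 libraries. It was 759 with DESeq2, 1056 with limma voom and library quality weights, 592 with the likelihood ratio test, 0 without chromosomes X and Y, 4 with all libraries thinned to the shallowest, and 1 to 828 when each library was left out in turn, the highest without neonatal replicate 4. DESeq2 and limma voom with neonatal replicate 4 left out gave 3289 and 928. The count of IRF members called was 0 on 6 libraries and 0 to 0 when each library was left out. It was 1 with DESeq2, with the likelihood ratio test and with limma voom and quality weights, and 4 and 1 with DESeq2 and limma voom when neonatal replicate 4 was left out. Why the tools differ was not tested. For Irf8 the log2 fold change ran from -2.78 (without adult replicate 2) to -1.81 (without adult replicate 1) over 20 alternatives, with adjusted p from 0.000548 to 0.413 and 5 calls. With each library left out, Irf9 ran from -0.61 to 0.053 and Sfpi1 from -0.52 to 0.13, both turning positive without neonatal replicate 8. No other member or pathway gene tried (Irf1, Irf2, Irf3, Irf5, Irf7 and 15 pathway genes) changed sign in any of the 20 alternatives (19 for Il28ra, which was too low once libraries were thinned). Depth limits neonatal replicate 4, where Irf7 rests on 3 reads. No paired analysis was possible because the groups share fewer than 2 replicate numbers.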
